A study of Tribolium castaneum with 9 samples.

Results

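The ribosome biogenesis and translation genes of the red flour beetle (Tribolium castaneum, a pest of stored grain) are described here across 3 groups of libraries. They are the genes whose annotated protein title holds ribosom, nucleolar, rRNA, tRNA, translation initiation, elongation factor or U3 small nucleolar, in any case, as the first title of the description column. The rule found 66 of the 5467 listed genes. Of these, 65 had enough reads to be tested and 1, the eIF5B-like gene LOC107398182, fell to the filter on low counts. By their titles they comprised 19 ribosome biogenesis genes, 13 tRNA processing genes, 7 tRNA ligases, 8 translation factors or regulators, 5 cytosolic ribosomal proteins, 6 genes of mitochondrial translation (5 ribosomal proteins and methionyl-tRNA formyltransferase) and 8 genes that carry the words of the rule but belong to none of these classes.

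The study sequenced RNA of adult beetles of the Susceptible phenotype, in connection with carbonyl sulfide (COS), a fumigant gas. Control whole body denotes untreated beetles, COS Malpighian tubules the excretory organ of treated beetles, and COS fat body their organ of storage and intermediary metabolism. Each group had 3 libraries. Neither dose nor exposure time is given in the sources used here, and the number carried by the fat body titles is unexplained. The control is a whole animal and both treated groups are organs, so in each contrast against control the tissue and the treatment changed together and cannot be told apart. Both contrasts also share the same 3 control libraries. The contrast of fat body over tubules compares organs within the treated beetles. Whether replicates are separate animals, pools or cultures is not stated in the labels. The p-values therefore reflect the spread between these libraries only, which may be technical.

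Ribosomes are built in the nucleolus. RNA polymerase I transcribes the ribosomal RNA precursor, the U3 small nucleolar RNA and the proteins of the small subunit processome fold and cleave it, and another set of factors assembles the large subunit. tRNA ligases load amino acids onto tRNAs that other enzymes have trimmed and chemically modified, and initiation and elongation factors run the cytosolic ribosome. Mitochondria have ribosomes and several ligases of their own, made from nuclear genes. In Drosophila, fat body translation is known to be adjusted to nutrition through the TOR kinase and the 4E-binding protein.

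Library totals recovered from the deposited values ran from 13435869 to 19866421 reads, and the listed genes held 45.7% to 67.3% of them. Genes are listed only if their log2 fold change was 1 or more in size in some comparison of the authors' deposited table. The same libraries thus chose them, so these counts are not independent evidence, and other ribosomal proteins, ligases and factors are not analysed here. By the authors' deposited table, fat body over tubules was the sole comparison past that size for 21 of the 66 genes. The summed markers of each organ were highest in the libraries of that name, though not every marker was: 3 of 10 fat body markers were lower in fat body than in control, and of 23 tubule markers 15 were higher and 2 lower in tubules. The Malpighian tubule markers summed to 6105 to 8162 CPM (reads relative to the library total, scaled by TMM factors) in tubule libraries, 1956 to 2196 in controls and 2109 to 2296 in fat body. The sums of fat body markers were 16871 to 25832 CPM in fat body, 4349 to 6164 in controls and 1449 to 1993 in tubules. Other tissues moved with the groups as well. The sums of 30 muscle markers were 33557 to 41482 CPM in fat body, 16858 to 17255 in controls and 2866 to 3328 in tubules, and 57 gut markers summed to 11687 to 17965 CPM in tubules against 6199 to 7330 in controls and 3993 to 4520 in fat body. The gut list was split. In tubules 18 gut markers were higher and 14 lower than in control, and in fat body 17 were higher and 27 lower. In fat body 18 muscle markers were higher and 6 lower. Among all genes tested 32.6% were higher and 30.2% lower in tubules, and 32.2% higher and 36.9% lower in fat body, each against control. The gut counts in tubules were thus near the shares of all genes. Of the muscle markers 1 was at 0 in each of the first 2 fat body libraries, and of the gut markers 3, 1 and 2 were at 0 in the 3 fat body libraries. The part of these tissues in the results below was not tested, and in bulk RNA fewer cells of a type and less RNA per cell cannot be told apart.

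Most of the genes were highest in tubules and lowest in fat body. The threshold was an adjusted p of 0.05 (Benjamini-Hochberg, over all 5358 genes tested) in edgeR's quasi-likelihood F test. For tubules over control 41 of the 65 tested members were higher and 1 was lower, against 32.6% higher and 30.2% lower among all genes tested. For fat body over control 10 were higher and 40 lower, against 32.2% higher and 36.9% lower. For fat body over tubules 3 were higher and 55 lower, where 38.8% and 41% of all genes were. The median log2 fold changes of the members were 1.06, -0.67 and -1.77 in the same order, and those of all genes were -0.12, -0.22 and -0.24. Relative to their size, the smaller of these counts were the less stable. Members lower in tubules than in control numbered 3 without fat body replicate 1 and 2 without tubule replicate 2. Those higher in fat body than in control numbered 6 without control replicate 1 and 5 without control replicate 2. The count of 40 lower in fat body than in control also moved, from 29 to 49 over all alternatives. With each library left out in turn it ran from 30 to 44. Every tubule library lay above every fat body library for 55 of the 65 members, and such a separation held for 40.6% of all genes tested. The group means ran in the order tubules, control, fat body for 41 of the 65 members (63.1%) and for 30.1% of all genes tested.

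**Figure D1:**
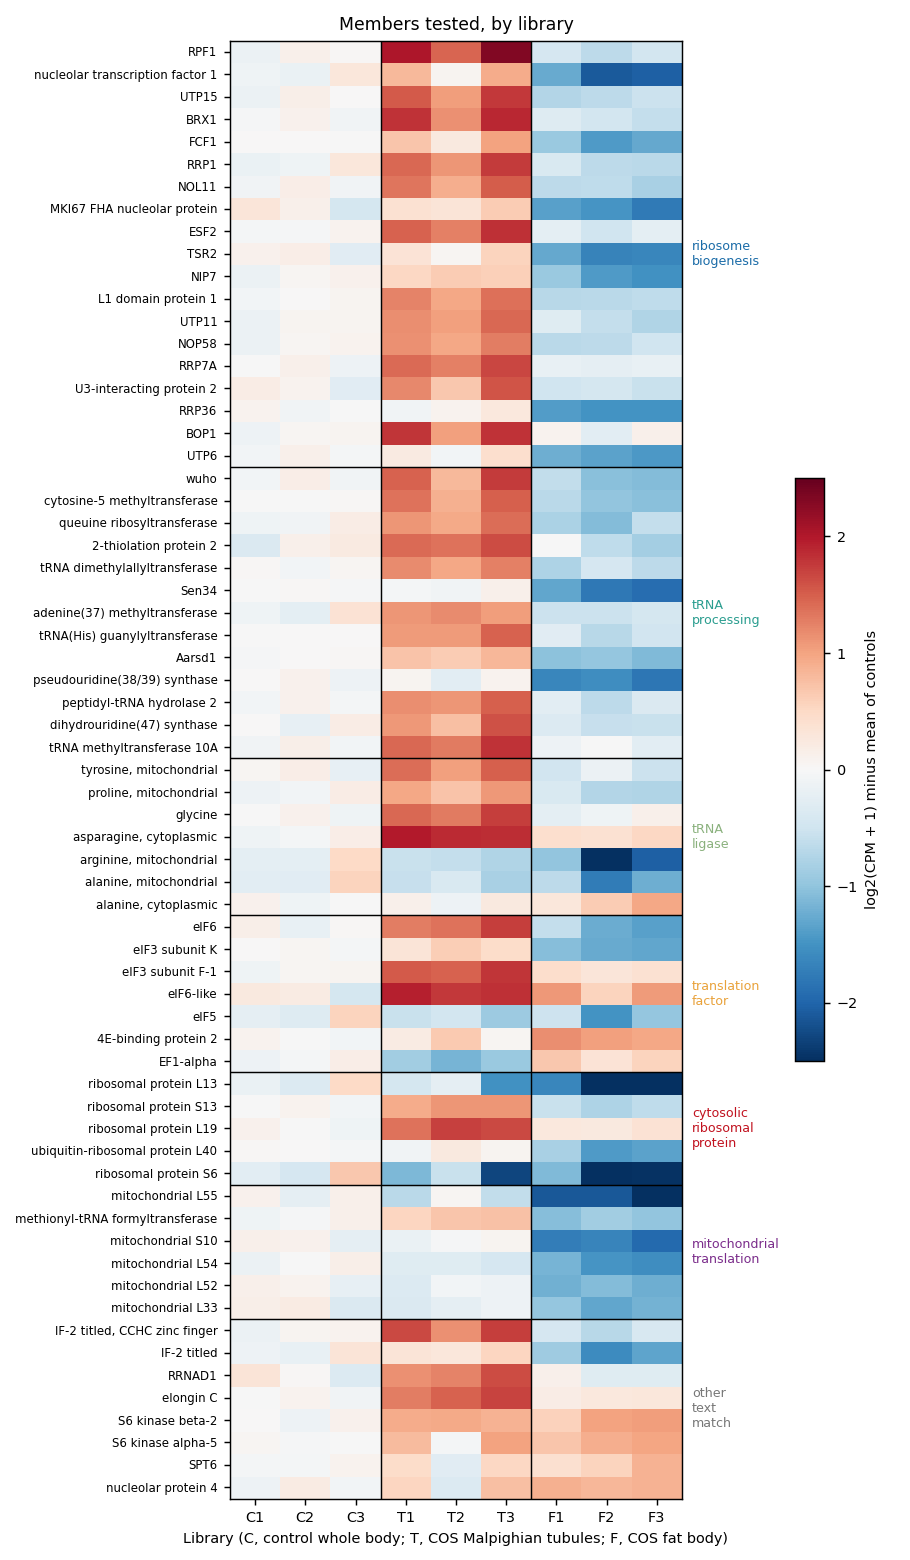
Each row is a tested member and each column a library; colour gives log2(CPM + 1) minus the mean of the 3 controls, limited to 2.5 in either direction. Most of the 19 ribosome biogenesis and 13 tRNA processing rows are red in the 3 tubule libraries and blue in the 3 fat body libraries, whereas the 5 mitochondrial ribosomal proteins are near the control colour in tubules and blue in fat body.

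The classes did not share 1 profile. Biogenesis and tRNA processing genes made up 25 of the 41 members that were higher in tubules, and the 19 members that were lower in fat body without passing in tubules included all 5 mitochondrial ribosomal proteins and 3 of the 5 cytosolic ones. Scaling matters for the size of every value: with the authors' own size factors the median of all genes moved by -0.49 on the log2 scale for tubules over control, by 0.16 for fat body over control and by 0.65 for fat body over tubules. Under those factors 34 members were higher and 11 lower for tubules over control, and 51 were lower in fat body than in tubules.

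**Figure D2:**
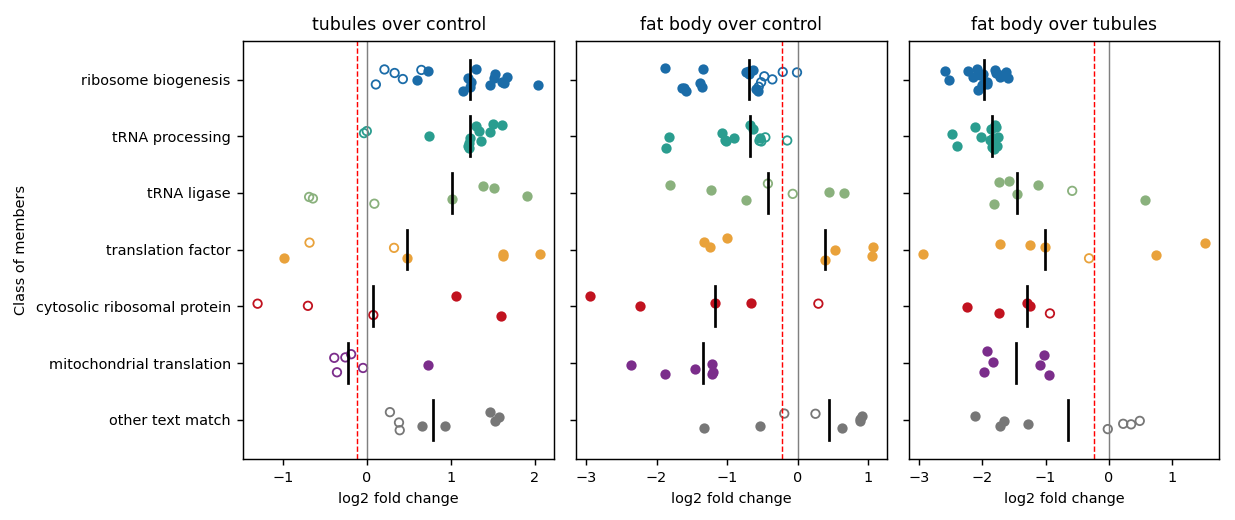
Log2 fold change of every tested member by class in the 3 comparisons; filled points passed the test, open points did not, black bars are class medians and the red dashed line is the median of all 5358 genes. The 19 ribosome biogenesis genes and the 13 tRNA processing genes are all filled and left of 0 for fat body over tubules, while translation factors and tRNA ligases lie on both sides.

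Of the 19 ribosome biogenesis genes 14 were higher in tubules than in control, against 32.6% of all genes tested. In fat body 13 were lower than in control, against 36.9%, and all 19 were lower than in tubules, against 41%. Their median log2 fold changes were 1.23, -0.70 and -1.97. By the authors' deposited values 17 of the 19 were lower by log2 1 or more in fat body than in tubules. For 6 of them that was the sole comparison past this size. That these 19 passed in fat body over tubules was thus largely set by the listing, which took genes of either direction. All 19 had the same order of group means, with tubules highest and fat body lowest. The summed level of the class was 1309, 1022 and 1511 CPM in tubules, 604, 630.2 and 584 in controls and 361, 319.7 and 319.4 in fat body. These sums do not overlap between any groups.

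The small subunit processome, which carries out the first cleavages of the ribosomal RNA precursor in yeast and animals, was represented by 9 members. UTP15 (LOC662465), a subunit of its UTP-A part, was at 15.7, 19.6 and 17.7 CPM in controls, 52.6, 37.4 and 62 CPM in tubules and 10.1, 10.8 and 11.7 CPM in fat body. All 3 groups were separate, with tubules highest. Its log2 fold change was 1.52 ± 0.21 for tubules over control (± SE, edgeR adjusted p = 0.000263) and -2.22 ± 0.22 for fat body over tubules (adjusted p = 1.66e-05). NOL11 (LOC100141656), a partner of UTP-A in human cells, had 71.7, 53.2 and 80.7 CPM in tubules against 26.1, 31.2 and 26 in controls, a 2.47-fold difference (adjusted p = 0.000348). In fat body it was at 17.3, 17.4 and 15.5 CPM, below every control. UTP11 (LOC103312200) was 2.35 times as high in tubules as in control and 3.48 times lower in fat body than in tubules (adjusted p = 2.61e-05).

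Proteins of the U3 ribonucleoprotein, around which the processome forms, were higher in tubules than in control as well. NOP58 (LOC662214), a core protein of box C/D small nucleolar ribonucleoproteins, was at 48, 55.1 and 56.8 CPM in controls, 119, 105 and 131 in tubules and 32.9, 33.3 and 37.1 in fat body. The log2 fold change was 1.15 ± 0.15 for tubules over control (edgeR adjusted p = 0.000195) and -1.78 ± 0.15 for fat body over tubules (adjusted p = 8.5e-06). The gene titled U3 small nucleolar RNA-interacting protein 2 (LOC655274) was at 51.3, 47.8 and 37 CPM in controls, 105, 72.5 and 136 in tubules and 31.6, 33.1 and 30.2 in fat body, and fat body against control did not pass (log2 -0.52 ± 0.24, edgeR adjusted p = 0.0738). Its lowest tubule library lay above its highest control, and that difference was 2.3-fold (adjusted p = 0.0019). With tubule replicate 2 as the only tubule library that call was lost (log2 0.71, adjusted p = 0.0792).

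Other processome factors stood out by low levels in fat body. UTP6 (LOC103312440) was at 35.4, 40.8 and 36.2 CPM in controls, 43.9, 35.4 and 50.4 in tubules and 15.5, 14.1 and 13.2 in fat body. Tubule and control libraries of UTP6 overlapped, and fat body was 2.62 times lower than control (edgeR adjusted p = 0.000306). RRP36 (LOC664407), needed for early cleavages in yeast, had the same profile, with 19.8, 17.4 and 18.5 CPM in controls, 17.5, 19.9 and 22.6 in tubules and 6.46, 5.91 and 5.94 in fat body, 3.04 times below control (adjusted p = 0.000153). FCF1 (LOC657722), a PIN-domain protein of the processome, was 2.55 times lower in fat body than in control (adjusted p = 0.0018), with 6.06, 4.03 and 4.52 CPM against 12.6, 12.5 and 12.3, and its tubule libraries were at 20.7, 14.9 and 26.1 CPM. RRP7A (LOC660446), by contrast, was 2.85 times higher in tubules than in control (adjusted p = 7.1e-05), and its fat body libraries, at 15, 14.5 and 14.9 CPM, were just below the controls at 17, 18.7 and 15.7.

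Large subunit assembly factors included the 2 highest folds of the class in tubules. RPF1 (LOC658342), a Brix-domain protein that acts on the large subunit in yeast, was at 13.3, 16.4 and 15.2 CPM in controls, 63.7, 42.6 and 78.4 in tubules and 10.9, 9.09 and 10.6 in fat body. Tubule libraries were all above the other 6. The log2 fold change of RPF1 was 2.04 ± 0.24 for tubules over control (edgeR adjusted p = 9.63e-05) and -2.59 ± 0.24 for fat body over tubules (adjusted p = 1.31e-05). BRX1 (LOC659117), of the same domain family, was at 38, 42.1 and 36.5 CPM in controls, 139, 87.2 and 146 in tubules and 30.7, 27.8 and 25.5 in fat body, and was 3.19 times higher in tubules than in control (adjusted p = 0.000159). RRP1 (LOC662195) was 2.76 times higher in tubules, with 95.7, 76 and 119 CPM against 30.9, 32 and 42.4 (adjusted p = 0.000382). NIP7 (LOC660211), another large subunit factor of yeast, was 2.53 times lower in fat body than in control, at 15.7, 10.9 and 10.2 CPM against 27.7, 31.9 and 33.3 (adjusted p = 0.000547). BOP1 (LOC662049), a subunit of the PeBoW complex in mammals and named here after its values were seen, was 3.05 times higher in tubules than in control (adjusted p = 0.000361), and its fat body libraries at 32.2, 25.2 and 33.1 CPM overlapped the controls at 27.9, 31.3 and 32.1.

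ESF2 (LOC663269), which acts in small subunit RNA processing in yeast, was 3.09 times higher in tubules than in control, at 28.7, 24.5 and 36.6 CPM against 9.27, 9.43 and 10.4 (edgeR adjusted p = 0.000145). The gene titled ribosomal L1 domain-containing protein 1 (LOC100142121) was 2.34 times higher (adjusted p = 0.000157), with 70.04, 58 and 77.1 CPM in tubules, 27.6, 29.4 and 30.5 in controls and 17.7, 18 and 18.3 in fat body. These 2 genes were thus separate from control in all 3 tubule libraries.

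Other genes of the class were also low in fat body against control. The gene titled nucleolar transcription factor 1 (LOC658441), the name of an activator of RNA polymerase I in vertebrates, was at 30.4, 29.3 and 40.4 CPM in controls, 58.5, 34.5 and 63.8 in tubules and 13.1, 6.93 and 7.22 in fat body. Its fat body libraries were below all others, with a log2 fold change of -1.88 ± 0.33 against control (edgeR adjusted p = 0.00124) and -2.52 ± 0.33 against tubules (adjusted p = 9.65e-05). TSR2 (LOC100141819), a chaperone for a small subunit protein in yeast, was at 9.86, 7.33 and 7.49 CPM in fat body and 27.5, 28.8 and 20.6 in controls, a 3.12-fold difference (adjusted p = 0.000387). The gene titled MKI67 FHA domain-interacting nucleolar phosphoprotein (LOC657076), the name of a Ki-67 partner in human cells, was 2.99 times lower (adjusted p = 0.000445), with 37.2, 34 and 27.8 CPM against 119, 106 and 71.3. The orthology term that the deposited annotation gives to this gene names a tRNA pseudouridine synthase, so its identity is uncertain.

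The rule used words of the title only, and the deposited annotation adds other features. A nucleolus term was given to 9 of the 19 biogenesis genes and to 0.784% of all genes tested, and an rRNA processing term to 8 of them and to 17 of all 5358 genes. WD40 repeats, which form propeller-shaped interaction surfaces, were annotated in UTP15, BOP1 and the U3-interacting protein, 3 of the 19, against 1.18% of all genes tested. Titles and terms both come from the deposited annotation, so the terms are not separate evidence of what these genes do.

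The tubule libraries differed among themselves in step with ovary markers. Tubule replicate 2 was the lowest tubule library for 17 of the 19 biogenesis genes, against 36.1% of all genes tested, and replicate 3 was the highest for 18 of them, against 38.04%. The summed level of 5 ovary and egg markers was 964 CPM in tubule replicate 1, 355 in replicate 2 and 1328 in replicate 3. In controls it was 132 to 201 and in fat body 54.7 to 140.1 CPM. Of the 5 markers 3 were higher in tubules than in control, against 32.6% of all genes tested. Vitellogenin receptor (LOC657346), which takes yolk protein into oocytes, accounted for 604, 202 and 857 CPM of the summed level in tubules. Bicaudal C (LOC663844), an RNA-binding protein of oogenesis in Drosophila, accounted for 270.2, 85.1 and 378. Tubule replicate 2 nevertheless lay above every control for 16 of the 19 biogenesis genes, against 41.1% of all genes tested. A fit with replicate 2 as the only tubule library assumes that it varies like the other groups, so class counts are not given for it. The part of the ovary signal in the difference between tubules and control was not tested. The count of 13 genes lower in fat body than in control depended on scaling and tool, with 7 under RLE factors and 7 with DESeq2, and 9 without control replicate 3.

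**Figure D3:**
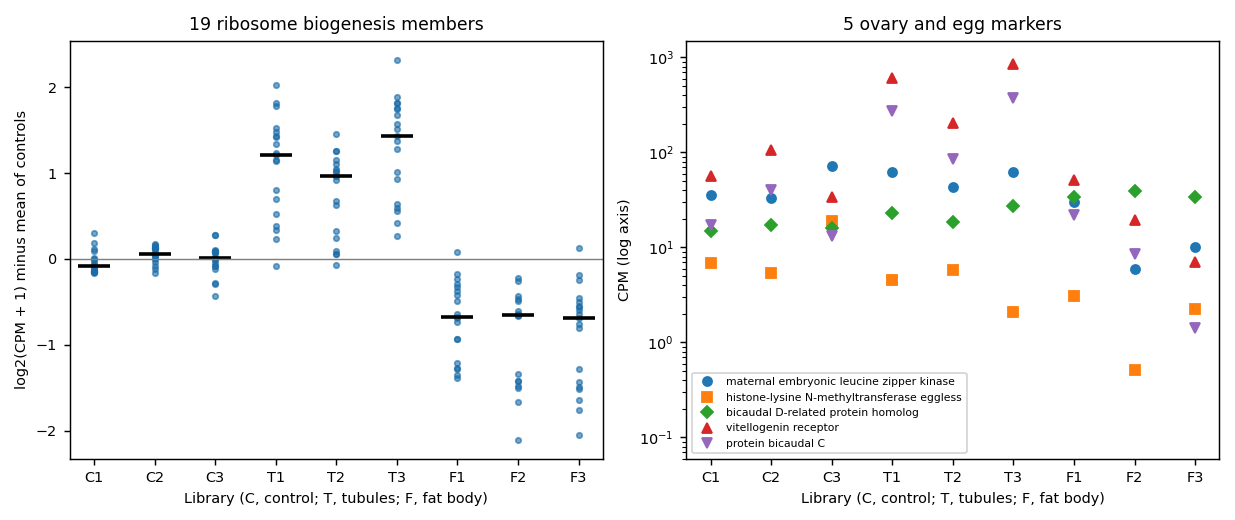
Left, log2(CPM + 1) minus the control mean for the 19 ribosome biogenesis genes in each library, with the median as a bar; right, CPM of 5 ovary and egg markers on a log axis. Medians are above 0 in the 3 tubule libraries and below 0 in the 3 fat body libraries, and vitellogenin receptor and bicaudal C follow the same order within tubules, replicate 3 highest and replicate 2 lowest.

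Of the 13 tRNA processing genes 11 were higher in tubules than in control, against 32.6% of all genes tested. In fat body 9 were lower than in control, against 36.9%, and all 13 were lower than in tubules, against 41%. Their summed level was 371, 326 and 441 CPM in tubules, 172, 183 and 186 in controls and 110.2, 95.1 and 92.8 in fat body, and no groups overlapped. By the authors' deposited values all 13 were lower by log2 1 or more in fat body than in tubules. For 9 of them that was the sole comparison past this size. That these 13 passed in fat body over tubules was thus largely set by the listing, which took genes of either direction. The enzymes with the largest differences in tubules modify the tRNA body or the anticodon. The tRNA methyltransferase 10A homolog (LOC661441) was at 10.4, 12.4 and 10.5 CPM in controls, 31.4, 28.6 and 41.3 in tubules and 10.1, 10.9 and 9.05 in fat body. It was 3.04 times higher in tubules than in control (edgeR adjusted p = 0.000133), and its fat body and control libraries overlapped. Cytoplasmic tRNA 2-thiolation protein 2 (LOC655312), which takes part in sulfur transfer to wobble uridines, was 2.83 times higher, with 45.8, 43.8 and 53.8 CPM against 12.6, 18.3 and 19.7 (adjusted p = 0.0012).

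The wuho homolog (LOC658312), a partner subunit of the tRNA guanine methyltransferase and needed in the Drosophila germ line, was at 10.5, 12.5 and 10.3 CPM in controls, 32.4, 20.1 and 39.4 in tubules and 6.86, 4.88 and 4.73 in fat body. Its 3 groups were separate. The log2 fold change was 1.46 ± 0.28 for tubules over control (edgeR adjusted p = 0.00148), -1.02 ± 0.28 for fat body over control (adjusted p = 0.0109) and -2.48 ± 0.29 for fat body over tubules (adjusted p = 4.28e-05). With tubule replicate 2 as the only tubule library the last value was -1.83. The tRNA cytosine-5 methyltransferase (LOC663081), of the Dnmt2 type, was 5.27 times lower in fat body than in tubules (adjusted p = 1.64e-05), at 5.13, 3.92 and 3.71 CPM against 23.9, 17 and 26.3. The queuine tRNA-ribosyltransferase gene (LOC660689), whose product exchanges a guanine for queuine in the anticodon, was 4.34 times lower (adjusted p = 2.44e-05), at 6.86, 5.4 and 8.03 CPM against 28.1, 25.2 and 34.8. All 3 of these enzymes passed in all 3 comparisons.

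The tRNA dimethylallyl transferase (LOC659205), which adds an isopentenyl group beside the anticodon, was 2.31 times higher in tubules than in control (edgeR adjusted p = 0.000372). The tRNA(His) guanylyltransferase (LOC663767), which adds the guanine that the histidine ligase recognises, was 2.46 times higher (adjusted p = 0.000484). For peptidyl-tRNA hydrolase 2 (LOC657619), which frees tRNAs from stalled peptides, the difference was 2.52-fold (adjusted p = 0.000362), with 27.2, 25.9 and 34.6 CPM in tubules and 11.1, 12.6 and 11.2 in controls.

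A pair of tRNA processing genes had tubule libraries at the control level and lower fat body libraries. Sen34 (LOC103314684), a subunit of the endonuclease that cuts introns from tRNA precursors, was at 14.6, 15 and 14.3 CPM in controls, 14.1, 13.6 and 16.1 in tubules and 5.33, 3.52 and 3.17 in fat body. Tubule and control libraries overlapped, and fat body was 3.65 times below control (edgeR adjusted p = 0.000266). The tRNA pseudouridine synthase LOC663267 was at 20.1, 21.5 and 18 CPM in controls, 20.8, 16.4 and 21.1 in tubules and 5.73, 6.08 and 4.996 in fat body, with a 3.54-fold fall against control (adjusted p = 0.000122). The alanyl-tRNA editing protein Aarsd1 (LOC659684), which removes wrongly loaded amino acids, was 2.1 times lower in fat body than in control (adjusted p = 0.000335), at 15.3, 16.1 and 14.4 CPM against 31.4, 32.3 and 32.8. The tubule replicate 2 was again lowest of its group for 11 of the 13 genes, against 36.1% of all genes tested. It lay above every control for 11 of the 13, against 41.1%. The count of genes lower in fat body than in control was 9 and ran from 6 to 12 over all alternatives.

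The 7 tRNA ligases divided by gene. Against control, 4 were higher in tubules, where 32.6% of all genes tested were. In fat body 2 were higher and 3 lower, near the shares of all genes, 32.2% and 36.9%. None, 0, was higher there on library totals alone, without control replicate 2 or without fat body replicate 3. The asparagine ligase of the cytoplasm (LOC659223) gave the largest difference of the class in tubules, with 72, 74.1 and 86.2 CPM in controls, 306, 283 and 279.6 in tubules and 104, 100.4 and 112 in fat body. Every tubule library was above every other library. The difference was 3.74-fold for tubules over control (log2 1.90 ± 0.14, edgeR adjusted p = 9.17e-06) and 2.75 times lower in fat body than in tubules (adjusted p = 1.2e-05). The glycine ligase (LOC660172), which serves both cytosol and mitochondria in other animals, was at 64.2, 70.2 and 60.5 CPM in controls, 178, 160.1 and 216 in tubules and 54.5, 60.04 and 70.9 in fat body. Only tubules stood apart for this gene, 2.84 times above control (adjusted p = 8.55e-05). The alanine ligase of the cytoplasm (LOC654931) had its highest values in fat body, with 125, 158 and 199 CPM against 109.9, 94.3 and 102 in controls and 111, 93.2 and 121 in tubules. Its log2 fold change was 0.65 ± 0.19 for fat body over control (adjusted p = 0.0155), and without fat body replicate 3, its highest library, or without control replicate 2 the call was lost (log2 0.47, adjusted p = 0.0608, and log2 0.58, adjusted p = 0.0626).

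Mitochondrial ligases did not move as 1 group. The tyrosine ligase (LOC657442) was 2.61 times higher in tubules than in control, at 33.6, 25.5 and 36 CPM against 12.4, 13.7 and 10.3 (edgeR adjusted p = 0.000481), and the proline ligase (LOC660646) was 2.02 times higher (adjusted p = 0.00313), at 15.7, 13.1 and 17.2 CPM against 6.87, 7.09 and 8.77. Both had separate tubule and control libraries. The arginine ligase (LOC654913) was at 83, 83.9 and 139 CPM in controls, 66.9, 65.1 and 58 in tubules and 49.2, 14.7 and 23.2 in fat body, and control replicate 3 was its highest library. The alanine ligase (LOC664536) was at 50.4, 49.8 and 89.8 CPM in controls, 40.5, 46.8 and 34.4 in tubules and 38.5, 17.3 and 25.5 in fat body. In tubules their log2 fold changes were -0.69 ± 0.40 (adjusted p = 0.159) and -0.64 ± 0.33 (adjusted p = 0.117), and neither passed. In fat body they were 3.52 times (adjusted p = 0.00466) and 2.34 times (adjusted p = 0.011) lower than in control. Without fat body replicate 1 the value of the arginine ligase was log2 -2.43.

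The 5 cytosolic ribosomal proteins in the table had unlike profiles. Against control 2 were higher in tubules and 4 were lower in fat body, where 32.6% and 36.9% of all genes tested were. In fat body 4 were lower than in tubules, against 41%. Ribosomal protein L19 (LOC655723), of the large subunit, was at 57.7, 53.2 and 49.2 CPM in controls, 138, 175 and 169.5 in tubules and 64.4, 63 and 68.5 in fat body. Tubules stood apart from both other groups, with a log2 fold change of 1.59 ± 0.15 over control (edgeR adjusted p = 3.19e-05) and of -1.30 ± 0.15 for fat body over tubules (adjusted p = 4.15e-05). Ribosomal protein S13 (LOC656303), of the small subunit, was at 51.7, 55.5 and 50.1 CPM in controls, 101, 114 and 114 in tubules and 35.5, 30.4 and 33.4 in fat body. Its 3 groups were separate, 2.09 times higher in tubules (adjusted p = 0.000196) and 1.58 times lower in fat body (adjusted p = 0.00318) than in control. The ubiquitin-ribosomal protein L40 fusion (LOC656930), made as a precursor that is cut into ubiquitin and L40, was at 868, 859 and 816 CPM in controls, 796, 1000.1 and 884 in tubules and 482, 318 and 333 in fat body. Tubule and control libraries overlapped, and fat body was 2.24 times lower than control (adjusted p = 0.000737).

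Ribosomal proteins L13 (LOC663973) and S6 (LOC663143) had another profile. L13 was at 27.9, 24.6 and 44.4 CPM in controls, 22.7, 26.6 and 10.2 in tubules and 9.4, 1.19 and 2.09 in fat body. S6, by its title the substrate of the S6 kinases, was at 27.1, 24.3 and 52.6 CPM in controls, 14.5, 21.9 and 5.89 in tubules and 14.7, 2.44 and 5.06 in fat body. In both genes control replicate 3 was the highest library and fat body replicate 1 the highest of its group. In fat body L13 had a log2 fold change of -2.94 ± 0.72 against control (edgeR adjusted p = 0.00658), and -4.30 without fat body replicate 1. For S6 it was -2.23 ± 0.69 (adjusted p = 0.0183), -3.21 without fat body replicate 1, and -2.02 without fat body replicate 3, where the call was lost (adjusted p = 0.0649). In tubules neither passed, with log2 fold changes of -0.70 ± 0.66 (adjusted p = 0.366) and -1.30 ± 0.67 (adjusted p = 0.115).

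Most of the testis markers shared a library profile with these genes. In this profile control replicate 3 and fat body replicate 1 were each at least 1.5 times the next library of their group. It was found in L13, S6 and the mitochondrial arginine and alanine ligases. They are 4 of the 65 members (6.15%), a smaller share than the 536 of all 5358 genes tested. The profile was thus less common among the members than among all genes, and the 4 genes were picked by it. Of 32 testis and sperm markers 20 had this profile (62.5%). Their summed level was 2153, 2137 and 5224 CPM in controls, 1718, 1987 and 986 in tubules and 1961, 561 and 989 in fat body. With control replicate 3 and fat body replicate 1 both left out, 4 of the 5 cytosolic ribosomal proteins were lower in fat body than in control. The part of the testis signal in these 4 genes was not tested.

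**Figure D4:**
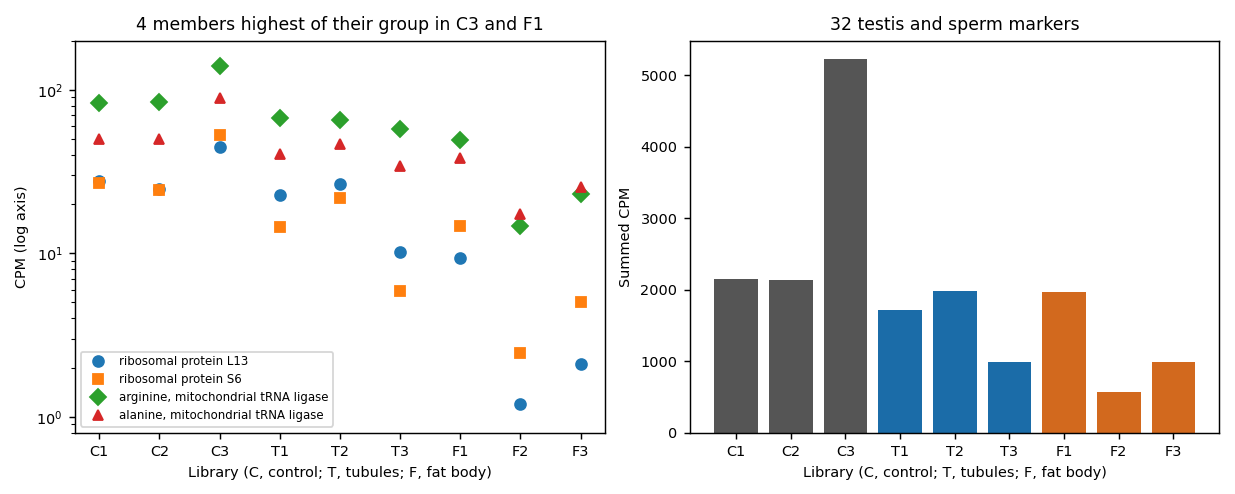
Left, CPM on a log axis of ribosomal proteins L13 and S6 and the mitochondrial arginine and alanine tRNA ligases in each library; right, summed CPM of 32 testis and sperm markers. Control replicate 3 (C3) is the highest control and fat body replicate 1 (F1) the highest fat body library in both panels, with marker sums of 5224 and 1961 CPM.

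Levels of different genes are compared per length only, as mean CPM over the 9 libraries divided by the coding length in kilobases. L40 was the highest of all members at 1825 CPM per kilobase. L19 was at 156 and S13 at 144, whereas L13 was at 31.6 and S6 at 25.9. The 5 cytosolic ribosomal proteins thus did not share 1 level, and the mitochondrial proteins L55, L33, L52, L54 and S10 were at 258, 171, 85.6, 58.6 and 56.04. The protein lengths come from the deposited table.

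All 6 genes of mitochondrial translation were lower in fat body than in control and all 6 were lower than in tubules. Of all genes tested 36.9% and 41% were. By the authors' deposited values all 6 were also lower by log2 1 or more in fat body than in control. That these 6 passed in fat body over control was thus largely set by the listing, which took genes of either direction. Genes of the class past that size in no comparison are not listed. The 5 mitochondrial ribosomal proteins, subunits of the ribosome that makes the mitochondrially encoded respiratory proteins, were near the control level in tubules. L55 (LOC103314171) was at 135, 109 and 137 CPM in controls, 79.3, 130.3 and 81.6 in tubules and 28.5, 28.2 and 17.6 in fat body. Its fat body libraries were below all others, 5.13 times below control (log2 -2.36 ± 0.27, edgeR adjusted p = 0.000189). S10 (LOC103312591) was at 37.1, 36.6 and 28.9 CPM in controls, 30.2, 33.3 and 35.8 in tubules and 9.6, 10.2 and 8.1 in fat body, 3.67 times below control (adjusted p = 9.37e-05). L54 (LOC103315094), at 17.3, 13.7 and 13.1 CPM in fat body against 36.2, 40.1 and 44.7 in controls, was 2.74 times lower (adjusted p = 0.000211), and its tubule libraries, at 32.4, 32.2 and 29.8 CPM, were also below every control. L52 (LOC103312259) and L33 (LOC103315181) were 2.32 times (adjusted p = 0.000371) and 2.31 times (adjusted p = 0.000892) lower in fat body than in control. In all 5 every fat body library was below every control and every tubule library, and 41.5% of all genes tested had fat body below every control.

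For tubules over control the log2 fold changes of these 5 proteins ran from -0.39 to -0.05, with edgeR adjusted p from 0.091 to 0.819. With the authors' size factors 5 members of the class were lower in tubules than in control, so the standing of this class in tubules rests on the scaling. Methionyl-tRNA formyltransferase (LOC663872), which makes the initiator formylmethionyl-tRNA of mitochondria, was at 6.03, 6.45 and 7.27 CPM in controls, 9.98, 11.2 and 11.5 in tubules and 2.6, 3.12 and 2.84 in fat body. Its groups were separate, with fat body 2.3 times lower than control (adjusted p = 0.000983). The difference in tubules was 1.65-fold (adjusted p = 0.00945). That call was lost with the authors' size factors (log2 0.24, adjusted p = 0.316). It was also lost with upper-quartile factors (log2 0.51, adjusted p = 0.0514) and on library totals alone (log2 0.49, adjusted p = 0.0529). The class sum was 310, 287 and 289 CPM in controls, 219.4, 285 and 237 in tubules and 97.6, 92.1 and 77.8 in fat body, where fat body overlapped neither of the other groups.

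The 7 tested translation factors and regulators lay on both sides of control. In tubules 4 were higher and 1 was lower than in control, against 32.6% and 30.2% of all genes tested. In fat body 4 were higher, or 2 on library totals alone or without control replicate 2, and 3 were lower. The shares of all genes there were 32.2% and 36.9%. EF1-alpha (LOC658093), which brings loaded tRNAs to the ribosome, was at 684, 724 and 833 CPM in controls, 405, 334 and 389 in tubules and 1187, 942 and 1102 in fat body. All 3 groups were separate, in the order fat body, control, tubules, which no other member had. It was 1.99 times lower in tubules than in control (log2 -0.99 ± 0.15, edgeR adjusted p = 0.000418) and 2.86 times higher in fat body than in tubules (log2 1.52 ± 0.15, adjusted p = 1.82e-05). The value for fat body over control was log2 0.53 ± 0.15 (adjusted p = 0.0122). That call was lost on library totals alone (log2 0.27, adjusted p = 0.125) and without control replicate 2 (log2 0.48, adjusted p = 0.0515).

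The 4E-binding protein 2 gene (LOC663803) encodes an inhibitor that holds the cap-binding factor eIF4E and is released from it when TOR is active. It was at 144, 134 and 128 CPM in controls, 155, 213 and 139.8 in tubules and 304, 278 and 264 in fat body. Fat body was above all other libraries, 2.09 times above control (log2 1.06 ± 0.18, edgeR adjusted p = 0.000974) and 1.67 times above tubules (adjusted p = 0.00355). With tubule replicate 2, its highest tubule library, as the only one the last value was log2 0.45 (adjusted p = 0.0975).

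Initiation factors went in several directions. Subunit F-1 of eIF3 (LOC664558), the scaffold that recruits the small subunit to messenger RNA, was at 50.1, 55.8 and 56.5 CPM in controls, 159, 151 and 189 in tubules and 73.9, 66.7 and 70.6 in fat body. It was 3.07 times higher in tubules than in control (edgeR adjusted p = 2.56e-05). Subunit K of the same complex (LOC662116) was at 63.1, 65.1 and 60.8 CPM in controls, 79, 96.7 and 87.4 in tubules and 29.4, 25.8 and 24.9 in fat body. For subunit K the fat body libraries were 2.36 times below control (adjusted p = 0.000224), whereas for subunit F-1 they were above every control. That call of subunit F-1 was lost in 11 alternatives, with log2 fold changes from 0.12 to 0.57 over all settings. The factor eIF5 (symbol Eif5), which triggers GTP hydrolysis at the start codon, was at 692, 652 and 1196 CPM in controls, 556, 591 and 435 in tubules and 569, 287 and 415 in fat body. Control replicate 3 was again the highest library. Its log2 fold change in fat body was -0.998 ± 0.31 against control (adjusted p = 0.0176) and -0.64 without that control, where the call was lost (adjusted p = 0.0511). The call was also lost without fat body replicate 2 (log2 -0.78, adjusted p = 0.0539) and without fat body replicate 3 (log2 -0.98, adjusted p = 0.0516).

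A pair of genes carried the title of eIF6, which binds the new large subunit, is needed to build it and keeps it from joining the small subunit early. The gene titled eIF6 (LOC658415) was at 6.22, 4.75 and 5.64 CPM in controls, 14.8, 15.6 and 20.5 in tubules and 3.33, 1.76 and 1.55 in fat body. Its groups were separate in the order tubules, control, fat body, with log2 fold changes of 1.62 ± 0.31 (edgeR adjusted p = 0.00155) and -1.32 ± 0.32 (adjusted p = 0.00599) against control. For fat body over tubules the value was -2.94 ± 0.33 (adjusted p = 3.42e-05). The eIF6-like gene (LOC658492) was at 4.6, 4.49 and 2.51 CPM in controls, 17.4, 15.1 and 15.8 in tubules and 9.13, 5.96 and 8.98 in fat body. It was 4.17 times higher in tubules than in control (adjusted p = 0.00027), and its fat body libraries also lay above every control, with a log2 fold change of 1.05 ± 0.28 (adjusted p = 0.0103). That call was lost with control replicate 3 and fat body replicate 1 both left out (log2 0.71, adjusted p = 0.0558). How reads shared by the 2 genes were counted is not given in the sources used here. The eIF5B-like gene that was not tested was at 0.0568 to 2.80 CPM in fat body, against 0.334 to 0.982 in tubules and 0.0648 to 0.127 in controls.

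**Figure D5:**
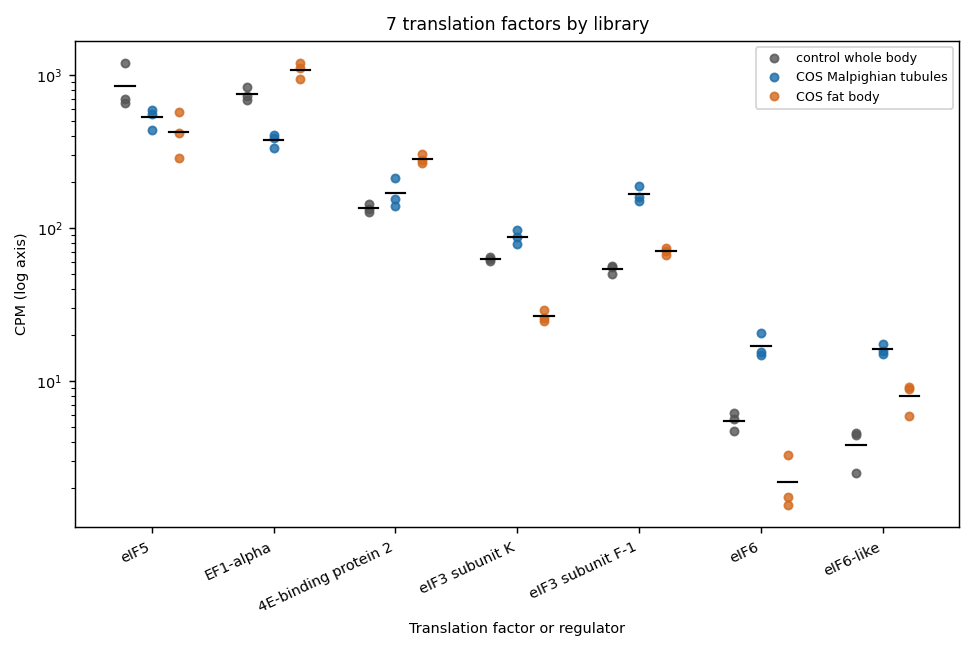
CPM of the 7 tested translation factors and regulators in each library on a log axis, with group means as bars. EF1-alpha is lowest in the 3 tubule libraries (334 to 405 CPM) and highest in the 3 fat body libraries (942 to 1187 CPM), whereas eIF6 is highest in tubules (14.8 to 20.5 CPM) and lowest in fat body (1.55 to 3.33 CPM).

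The remaining 8 genes matched the words of the rule and were placed in none of the classes. The S6 kinase beta-2 gene (LOC661481), whose product phosphorylates ribosomal protein S6 downstream of TOR, was at 48.7, 44.3 and 52.1 CPM in controls, 93.1, 94.2 and 88.8 in tubules and 72.9, 98.5 and 101 in fat body. Every library of either organ was above every control, 1.88 times in fat body (edgeR adjusted p = 0.00151) and 1.9 times in tubules (adjusted p = 0.00107), the latter lost with the authors' size factors (log2 0.44, adjusted p = 0.0528). Elongin C (LOC664284), a partner of RNA polymerase II elongation and of ubiquitin ligases, was at 34.5, 37.1 and 32.6 CPM in controls, 86, 98.7 and 115 in tubules and 39.5, 41.9 and 42.7 in fat body, 2.87 times higher in tubules than in control (adjusted p = 4.98e-05). A gene titled translation initiation factor IF-2 (LOC100142315) was 2.98 times higher in tubules (adjusted p = 0.000171), and the deposited annotation gives it a zinc finger of the CCHC kind. The other gene with that title (LOC103314363) was 2.52 times lower in fat body than in control (adjusted p = 0.00151). RRNAD1 (LOC656995) was 2.75 times higher in tubules (adjusted p = 0.00136). S6 kinase alpha-5, SPT6 and nucleolar protein 4 were the other 3, with their highest group means in fat body. Without these 8 genes 36 of 57 members were higher in tubules than in control and 51 of 57 were lower in fat body than in tubules.

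Across all classes 21 members were higher in tubules and lower in fat body than in control, which is 32.3% of those tested against 15.4% of all genes tested. The count fell to 10 members (15.4%) without control replicate 3, with RLE factors and with DESeq2, against 11.6%, 11.96% and 12.7% of all genes, and to 11 members (16.9%) with the authors' size factors, against 8.21%. It ran from 15 to 26 under the other alternatives run for both organs. The 21 members included 8 biogenesis genes, 7 tRNA processing genes, ribosomal protein S13, methionyl-tRNA formyltransferase, the mitochondrial proline ligase, eIF6, eIF3 subunit K and 1 gene titled IF-2. The opposite profile was found for EF1-alpha alone (1.54% of members, 13.7% of all genes tested). Another 15 members (23.1%, against 10.2% of all genes tested) were higher in tubules without passing in fat body, and 19 (29.2%, against 16.4%) were lower in fat body without passing in tubules. The 5 members higher in both organs (7.69%) were near the share of all genes, 7.0%, and 1 of them, S6 kinase alpha-5, lost its tubule call in 15 alternatives and changed sign in 1 more. Another of the 5, eIF3 subunit F-1, lost its fat body call in 11 alternatives. A further 4 (6.15%, against 11.5%) were higher in fat body without passing in tubules.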

How the data were processed

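RNA of 9 libraries in 3 groups of 3 was analysed. Total RNA was purified with TRIzol and DNase and reads were placed on assembly Tcas5.2, per the labels' protocols. The submitters' processing notes name Trimmomatic 0.32. The aligner, counter and counter settings were not given in the sources used here. Per the file headers, the authors deposited an expected count per gene and library, a normalized signal, FPKM and TPM, and log2 fold changes of 3 comparisons. Library totals were recovered from counts, FPKM and lengths, and the authors' size factors from counts and signal. TPM was not used. The other per-sample value columns numbered 0.

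After rounding, the expected counts went into edgeR 4.0.16 under R 4.3.3 (quasi-likelihood F test, filterByExpr, TMM on listed genes, recovered totals, all 9 libraries, no covariate). The filter left 5358 genes and removed 109. The Benjamini-Hochberg threshold was 0.05. Each fold change ± SE is on the log2 scale, the SE being the log2 fold change over the square root of F. Levels are TMM-scaled CPM. Totals limit precision for members under about 10 CPM. The code was tested on simulated data. Alternatives were other scalings, no filter, DESeq2 1.42.0, a replicate block, fewer groups and libraries left out. The labels do not say that the numbers pair samples, so no pairing was used. Deviations from group means in same-numbered libraries had r from -0.50 to 0.42, and other pairs were not set beside them.

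The members, classes and lists were chosen with earlier results of these data known. In classes of up to 12 genes any member may be named. In larger ones the 3 highest and 3 lowest log2 fold changes that passed per comparison, the 3 most abundant by FPKM, members that passed in all 3 comparisons and members of a complex are named. Of the members, 61 matched a RefSeq table of another assembly, so neither coordinates nor sequences are given. Deposited lengths were within 10% of the RefSeq gene span for 75.3% of matched genes, so the deposited FPKM of genes with long introns is low, and levels were set per coding length instead.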

Additional observations from a re-analysis of the deposited data

Results flagged for a closer look

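For 22 members the calls against control had opposite signs in the 2 organs, and the difference between the organs was itself tested as fat body over tubules by edgeR, with 3 libraries a group. All 22 passed, which their choice by opposite calls against the same controls largely fixes, so the values are given as a description. Among ribosome biogenesis genes the log2 fold changes of fat body over tubules were -2.22 for UTP15, -1.80 for UTP11, -1.78 for NOP58, -2.03 for NOL11, -2.08 for FCF1, -2.06 for RRP1, -1.93 for the L1 domain protein and -1.93 for NIP7. Among tRNA processing genes they were -1.82 for Aarsd1, -1.88 for tRNA dimethylallyl transferase, -2.48 for wuho, -2.12 for the queuine enzyme, -1.83 for tRNA(His) guanylyltransferase, -1.85 for the tRNA adenine methyltransferase LOC656112 and -2.40 for the cytosine-5 methyltransferase. In the other classes they were -1.73 for ribosomal protein S13, -1.93 for methionyl-tRNA formyltransferase, -1.74 for the mitochondrial proline ligase, -2.94 for eIF6, -1.71 for eIF3 subunit K and -2.11 for the IF-2-titled gene LOC100142315. EF1-alpha was the gene with the other sign, at 1.52. In every library of tubules the first 21 genes were above every library of fat body, and EF1-alpha was below.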

How the results depend on the processing

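Of 150 calls on members, 114 held under every alternative, namely 34 of 42 for tubules over control, 29 of 50 for fat body over control and 51 of 58 for fat body over tubules. The replicate block lost 6 calls and gave 39 members higher in tubules than in control, 37 lower in fat body than in control and 55 lower in fat body than in tubules. The count of members lower in tubules than in control was 1 and became 4 with upper-quartile factors, 4 on library totals alone, 11 with the authors' size factors, 4 with only the 2 groups compared and 2 with DESeq2, and ran from 1 to 3 with each library left out in turn. Members higher in fat body than in control numbered 10, or 3 on library totals alone, 6 without the 8 other text matches and 5 to 10 with each library left out. Members higher in fat body than in tubules numbered 3, or 7 with the authors' size factors and 2 to 4 with each library left out. Some signs changed, among them those of 2 called values. For tubules over control the values were S6 kinase alpha-5 (LOC658616, called in the fit reported, -0.00067 with tubule replicate 2 as the only tubule library), mitochondrial L55 (LOC103314171, 0.080 likewise), mitochondrial S10 (LOC103312591, 0.012, 0.0054 and 0.017 without control replicate 1, control replicate 2 and tubule replicate 1, in a range of -0.13 to 0.017 with each library left out, and -0.54 with the authors' size factors) and eIF3 subunit K (LOC662116, also called, -0.013 with the authors' size factors). For fat body over tubules they were Eif5 at 0.33 and the mitochondrial alanine ligase (LOC664536) at 0.059, both with the authors' size factors. The cause of these changes was not tested. The setting with a single tubule library was chosen after seeing the data. Alternatives were run for the members and for counts over all genes, and genes of few reads, such as eIF6, rest on the fewest counts.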

Other observations

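Genes around the same pathway that the title rule did not take were counted from lists chosen with earlier results known. They come from the same listed genes, so these counts are not independent evidence either. Of all genes tested 32.6% were higher in tubules than in control and 36.9% lower in fat body than in control. The share lower in fat body than in tubules was 41%. Of 10 small nucleolar ribonucleoprotein and early assembly genes 8 were higher in tubules than in control, 7 were lower in fat body than in control and 9 were lower in fat body than in tubules, with medians of 1.22, -0.68 and -1.86 on the log2 scale. By the authors' deposited values 9 of the 10 were lower by log2 1 or more in fat body than in tubules. That they passed there was thus largely set by the listing, which took genes of either direction. NHP2-like protein 1 (LOC664143), which binds the U3 RNA, was at 32.4, 33.3 and 28 CPM in controls, 74.9, 77.8 and 89.9 in tubules and 20.5, 21.1 and 21.7 in fat body. The gene titled probable H/ACA ribonucleoprotein complex subunit 1 (LOC100141541) had the opposite order, at 126, 114 and 85.2 CPM in controls, 20.6, 31.4 and 27 in tubules and 298, 311 and 302 in fat body. Of 8 subunits and factors of RNA polymerases I and III 4 were higher in tubules than in control, 5 were lower in fat body than in control and 7 were lower in fat body than in tubules. There are 2 genes titled as the largest subunit of RNA polymerase I. LOC659526 was at 40.4, 45.3 and 53.1 CPM in controls, 145, 90.5 and 168 in tubules and 42.6, 45 and 46.1 in fat body. LOC100142371 was at 27.7, 27.2 and 21.4 CPM in controls, 20.3, 22.6 and 27.6 in tubules and 84.7, 85.9 and 88.4 in fat body, with fat body above every other library.

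Of 4 genes of the signal recognition particle and the translocon, which bring ribosomes to the endoplasmic reticulum, 3 were higher in tubules than in control and all 4 were lower in fat body than in tubules. Of all genes tested 32.6% and 41% were. By the authors' deposited values all 4 were lower by log2 1 or more in fat body than in tubules. That they passed there was thus largely set by the listing, which took genes of either direction. Sec61 subunit beta (LOC663663), part of the membrane channel, was at 53.9, 46.6 and 57.3 CPM in controls, 189, 256 and 222 in tubules and 47.3, 51.6 and 53.7 in fat body. The signal recognition particle protein LOC103312218 was at 28.9, 23.6 and 17.4 CPM in controls, 22, 24.6 and 24.8 in tubules and 6.86, 5.06 and 5.81 in fat body, and fat body was below every other library. The kinase GCN2 (LOC103313061), which halts initiation when amino acids run short, was at 42.1, 32.5 and 37.5 CPM in controls, 37, 78.6 and 33.9 in tubules and 11.1, 17.2 and 5.13 in fat body.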
